A study of Mus musculus with 4 samples.

Results

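Lin28a, Lin28b, Trim71, L1td1, Igf2bp1, Igf2bp2 and Igf2bp3 encode RNA regulators of the embryo. Most of them are low in most adult tissues and can return in tumours. Hmga2 encodes a chromatin protein and, like most of them, is under control of the microRNA family let-7. These 8 genes were taken by symbol from a table of 23235 genes, and all 8 were found. RNA was sequenced from 4 mouse cell cultures of strain 129S4/SvJae, 1 library each. By their labels DKO_NP and WT_NP were neural progenitor cells (NPCs) at day 6. They had spent 4 days as embryoid bodies (aggregates formed by embryonic stem, or ES, cells in suspension) and then 2 days in retinoic acid. DKO_ES and WT_ES were the undifferentiated ES cells at day 0, cultured in medium with serum and leukemia inhibitory factor after earlier passages on feeder cells. DKO cells lack both Dnmt3a and Dnmt3b, which encode the de novo DNA methyltransferases, and WT cells were wild type on the J1 background. The number of knockout clones is not stated in the labels.

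Lin28a and Lin28b bind precursors of the let-7 microRNAs and lead them to be tailed with uridine and degraded, so that mature let-7 is scarce in ES cells. Mature let-7 in turn pairs with messages of Lin28, Trim71, the Igf2bp genes and Hmga2 and represses them, which closes a loop of mutual inhibition known from development in worms and mammals. Trim71, the relative of worm lin-41, represses messages in early embryos. L1td1 encodes an RNA-binding protein that arose from a transposable element and associates with LIN28 in human pluripotent cells. The Igf2bp proteins bind and stabilise many messages, among them those of Igf2 and Myc.

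The let-7 microRNAs are shown first because their seed, the bases that select targets, links most of the members. RefSeq (GRCm38.p6) held the 5p mature form for 11 of the 12 let-7 genes in the table, and all 11 carried 1 seed. Capitals mark bases 2 to 8.
let-7a-5p (chr13:48538239-48538260, minus strand): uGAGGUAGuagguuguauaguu
let-7e-5p (chr17:17830366-17830387, plus strand): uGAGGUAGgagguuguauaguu
let-7g-5p (chr9:106178846-106178867, plus strand): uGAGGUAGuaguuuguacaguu
miR-98-5p (chrX:151913229-151913250, plus strand): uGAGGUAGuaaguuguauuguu
The Lin28 proteins recognise the letters GGAG in the loop of the precursor. Of the 12 hairpins 9 held GGAG between the arms, and Mirlet7b, Mirlet7c-2 and Mir98 did not. Searched on the transcribed strand only, GGAG stood anywhere in the hairpin of 9 of 12 let-7 genes, against 44.5% of the 1005 mouse hairpins. Capitals mark the GGAG between the arms in the first 2 of these hairpins, and the last has none between its arms.
Mirlet7a-1 hairpin (chr13:48538179-48538272, minus strand): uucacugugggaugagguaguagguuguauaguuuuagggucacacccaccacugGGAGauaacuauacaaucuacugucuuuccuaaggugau
Mirlet7e hairpin (chr17:17830352-17830444, plus strand): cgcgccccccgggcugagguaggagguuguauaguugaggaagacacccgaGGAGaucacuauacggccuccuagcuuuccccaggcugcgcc
Mirlet7b hairpin (chr15:85707319-85707403, plus strand): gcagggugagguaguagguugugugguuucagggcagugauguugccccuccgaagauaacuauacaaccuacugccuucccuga

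The seed pairs with the letters CTACCTC in a message. In the longest annotated 3′ UTR of each gene (GENCODE M21, GRCm38, transcribed strand) 7 of the 8 members held this match, against 8.96% of 20979 genes. The list was drawn up around the let-7 axis, so a share above that of all genes follows from the choice. L1td1, whose 3′ UTR of 364 bases was the shortest of the members, held none. A longer UTR has more places for a match, and the members' median of 2894.5 bases compares with 954 for all genes; among the 15649 genes with a 3′ UTR of 364 bases or more the share was 11.5%. Lin28b, Trim71, Igf2bp1 and Hmga2 held 4 matches each, a number that 8 genes shared and 4 genes exceeded. Lin28a held 2, and Igf2bp2 and Igf2bp3 held 1 each. These matches are letters in the annotation and not measured sites. The first match of each member and the second of Hmga2 are shown, with the match in capitals.
Lin28a (chr4:134005189-134005212, minus strand): tgcacagcctgttgaaCTACCTCa
Lin28b (chr10:45381022-45381045, minus strand): cacccgggcgggaagtCTACCTCa
Trim71 (chr9:114512472-114512495, minus strand): caacattgcctaagtcCTACCTCa
Igf2bp1 (chr11:95961778-95961801, minus strand): tgctgtgcgaagtaaaCTACCTCa
Igf2bp2 (chr16:22059473-22059496, minus strand): aacacacaaataaaagCTACCTCa
Igf2bp3 (chr6:49086787-49086810, minus strand): gtgcatttttactcaaCTACCTCa
Hmga2 (chr10:120364224-120364247, minus strand): cgccgacattcaatttCTACCTCa
Hmga2 (chr10:120362987-120363010, minus strand): tccccactcctcaataCTACCTCt
In Trim71 all 4 matches were followed by an A, the letter that strengthens such sites, and in Hmga2 1 of 4 was.

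The libraries were described before the members were compared. Values were FPKM, reads per kilobase of transcript scaled to the depth of the library, as the authors deposited them. The steps of low values gave approximate denominators of 13.1 to 34.5 M reads, and each member had an estimated 219 reads (Hmga2 in DKO_ES) to 19126 reads (Igf2bp1 in DKO_NP) in a library. Dnmt3a stood at 4.14 FPKM in DKO_NP against 17.2 in WT_NP, and at 12.3 in DKO_ES against 35.3 in WT_ES. Dnmt3b stood at 5.22 FPKM in DKO_NP against 9.98 in WT_NP, and at 13.9 in DKO_ES against 140.3 in WT_ES. Summed over 6 pluripotency markers, FPKM was 139.2 in DKO_NP, 35.8 in WT_NP, 3272 in DKO_ES and 3324 in WT_ES. Of 8 neural progenitor markers, 8 reached 1 FPKM in DKO_NP, 6 in WT_NP, 5 in DKO_ES and 4 in WT_ES. Their sum was 195 FPKM in DKO_NP but 47.4 in WT_NP, beside 35.0 in DKO_ES and 29.2 in WT_ES. Markers of other lineages differed between the NPC libraries: endoderm and yolk sac markers summed to 31.0 FPKM in DKO_NP and 127.1 in WT_NP (7 and 8 of 8 at 1 FPKM), mesoderm markers to 10.3 and 63.6 (4 and 5 of 7, with 1 at 0 in DKO_NP), and embryonic red blood cell markers to 74.5 and 765.9 (3 and 5 of 5). Fibroblast markers summed to 39.99 FPKM in DKO_NP, 68.1 in WT_NP, 21.5 in DKO_ES and 79.4 in WT_ES. Germ cell markers summed to 478.4, 32.1, 99.8 and 87.0 in that order, and markers of neurons to 41.6, 7.59, 79.2 and 64.6. In such cultures fewer cells of a type and less RNA per cell cannot be told apart.

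All 8 members were present above 1 FPKM in all 4 libraries. From high to low, the order in DKO_NP was Igf2bp1, Lin28a, Igf2bp3, Igf2bp2, Trim71, Lin28b, Hmga2 and L1td1. In WT_NP it was Lin28a, Igf2bp1, Igf2bp3, Igf2bp2, Hmga2, Trim71, Lin28b and L1td1. In DKO_ES it was L1td1, Lin28a, Igf2bp1, Trim71, Igf2bp2, Igf2bp3, Lin28b and Hmga2, and WT_ES differed from this by an exchange of Lin28a with Igf2bp1 and of Igf2bp2 with Igf2bp3. Some neighbours were level within counting error: Lin28a and Igf2bp3 in DKO_NP (ratio of FPKM 1.03, interval 0.991 to 1.07), Igf2bp3 and Igf2bp2 in WT_NP (1.03, 0.996 to 1.07), and Igf2bp1 and Lin28a in WT_ES (1.01, 0.979 to 1.03). Intervals here and below are 95% exact binomial intervals of approximate read numbers and cover counting error only. No difference has a replicate check, because each group was 1 library.

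**Figure D1:**
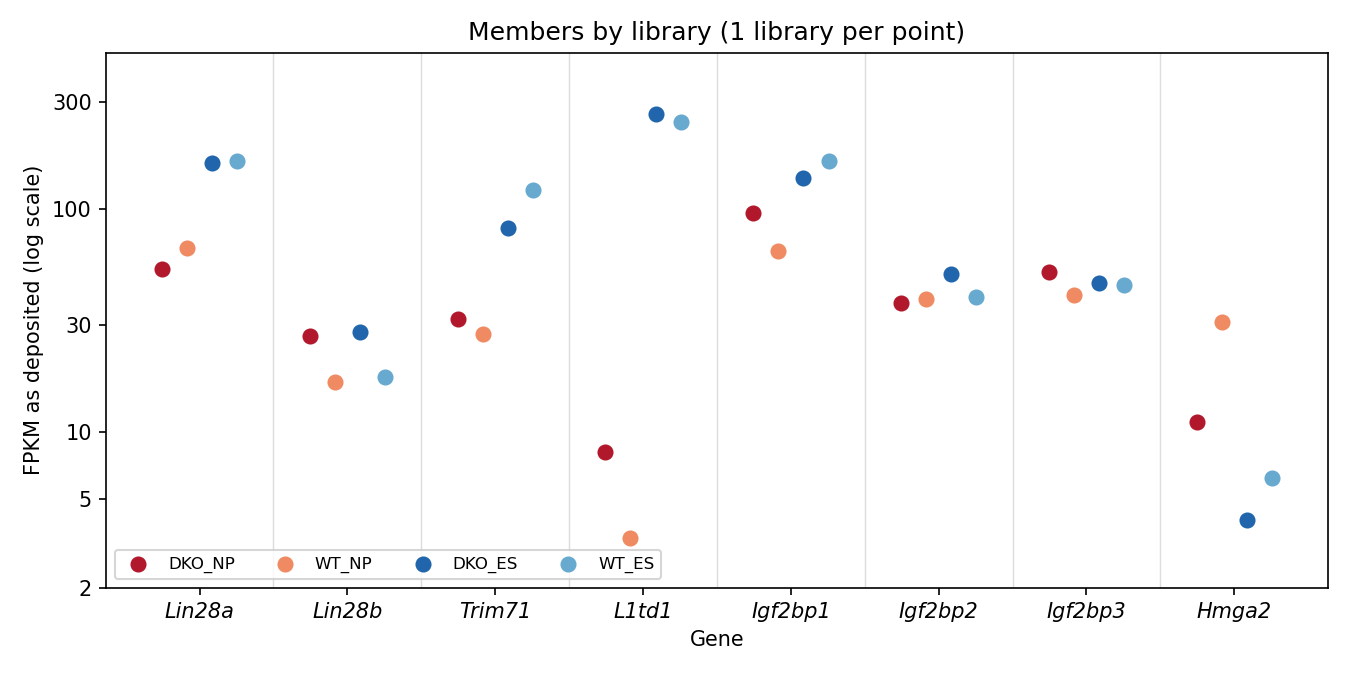
FPKM as deposited (log axis) of the 8 members, with 1 point per library in the order DKO_NP, WT_NP, DKO_ES and WT_ES. L1td1 lies between 244.5 and 266 FPKM in ES cells and between 3.33 and 8.12 in NPCs, Hmga2 runs the other way, and Igf2bp2 and Igf2bp3 stay between 37.9 and 51.9 FPKM.

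Comparisons of NPCs with ES cells ask which parts of the ES cell programme end by day 6 and whether that depends on the methyltransferases. Libraries were put on a common scale by the median ratio of their genes, since the median gene differed as deposited by a log2 ratio of -0.82 for WT_NP against WT_ES, -0.43 for DKO_NP against DKO_ES and 0.39 for DKO_NP against WT_NP. Log2 ratios are of scaled FPKM plus 1, folds are of scaled FPKM without it, and a gene counts as different at 2-fold on the log2 scale. For WT_NP against WT_ES 3 of 8 members passed 2-fold (1 higher, 2 lower), against a background of 27.5% of 14086 genes, 16.2% higher and 11.3% lower. For DKO_NP against DKO_ES 3 of 8 passed (1 higher, 2 lower), against 23% of 14050 genes, 11.8% higher and 11.2% lower. The members' median log2 ratios were -0.01 in DKO and 0.25 in WT cells, beside -0.03 and 0.01 over all genes. Of all genes past 2-fold, 51.3% in DKO and 59.0% in WT cells were higher in NPCs after scaling, against 26.4% in DKO and 13.3% in WT cells as deposited. The members past 2-fold in WT cells were 5 both as deposited and under equal sums of FPKM. As deposited 901 of all genes were past 2-fold higher in WT_NP and 5876 lower, and the share under equal sums was not computed.

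L1td1 was the member with the greatest difference between stages. It stood at 8.12 FPKM in DKO_NP, 3.33 in WT_NP, 266 in DKO_ES and 244.5 in WT_ES, and the NPC and ES libraries were far apart in both genotypes. It was 23.8-fold lower in DKO_NP than in DKO_ES (interval 21.9 to 25.8) and 37.4-fold lower in WT_NP than in WT_ES (33.6 to 41.6). This was the 39th lowest log2 ratio of 14050 genes in DKO cells and the 33rd lowest of 14086 in WT cells. Among all genes of a library it ranked 496 in DKO_ES and 548 in WT_ES, but 7733 in DKO_NP and 9997 in WT_NP.

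The Lin28 genes, inhibitors of let-7 maturation, did not follow L1td1. Lin28a stood at 53.5 FPKM in DKO_NP, 66.98 in WT_NP, 160.6 in DKO_ES and 163.6 in WT_ES. Both NPC libraries were lower than both ES libraries as deposited, yet Lin28a still ranked 1506 and 798 among all genes in DKO_NP and WT_NP. After scaling it was 2.17-fold lower in DKO_NP than in DKO_ES (2.10 to 2.26) and 1.24-fold lower in WT_NP than in WT_ES (1.20 to 1.28), which is past 2-fold in DKO cells alone; as deposited its log2 ratio was -1.57 in DKO and -1.28 in WT cells, past 2-fold in both, and under equal sums of FPKM it was -0.50 in DKO and -1.14 in WT cells. Lin28b stood at 26.8 FPKM in DKO_NP, 16.8 in WT_NP, 28.0 in DKO_ES and 17.6 in WT_ES. As deposited both knockout libraries were above both wild-type ones, whereas after scaling both NPC libraries were above both ES libraries. Its log2 ratio between stages was 0.39 in DKO and 0.85 in WT cells after scaling and -0.06 and -0.07 as deposited, so no direction can be given.

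The balance within the Lin28 pair does not depend on scaling, because both values come from 1 library. The ratio of Lin28a to Lin28b in FPKM was 2.00 in DKO_NP (1.91 to 2.09), 3.99 in WT_NP (3.83 to 4.16), 5.74 in DKO_ES (5.48 to 6.03) and 9.27 in WT_ES (8.73 to 9.85). The 4 intervals did not overlap, but they cover counting error only and not the spread between cultures. How often other gene pairs do the same was not computed. Lin28b made up 33.4% of the pair's FPKM in DKO_NP, 20.0% in WT_NP, 14.8% in DKO_ES and 9.74% in WT_ES, so its share was higher in NPCs than in ES cells of either genotype and higher in DKO than in WT cells at either stage. Summed and scaled, the pair stood at 88.5 FPKM in DKO_NP, 124.9 in WT_NP, 150.6 in DKO_ES and 137.4 in WT_ES.

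**Figure D2:**
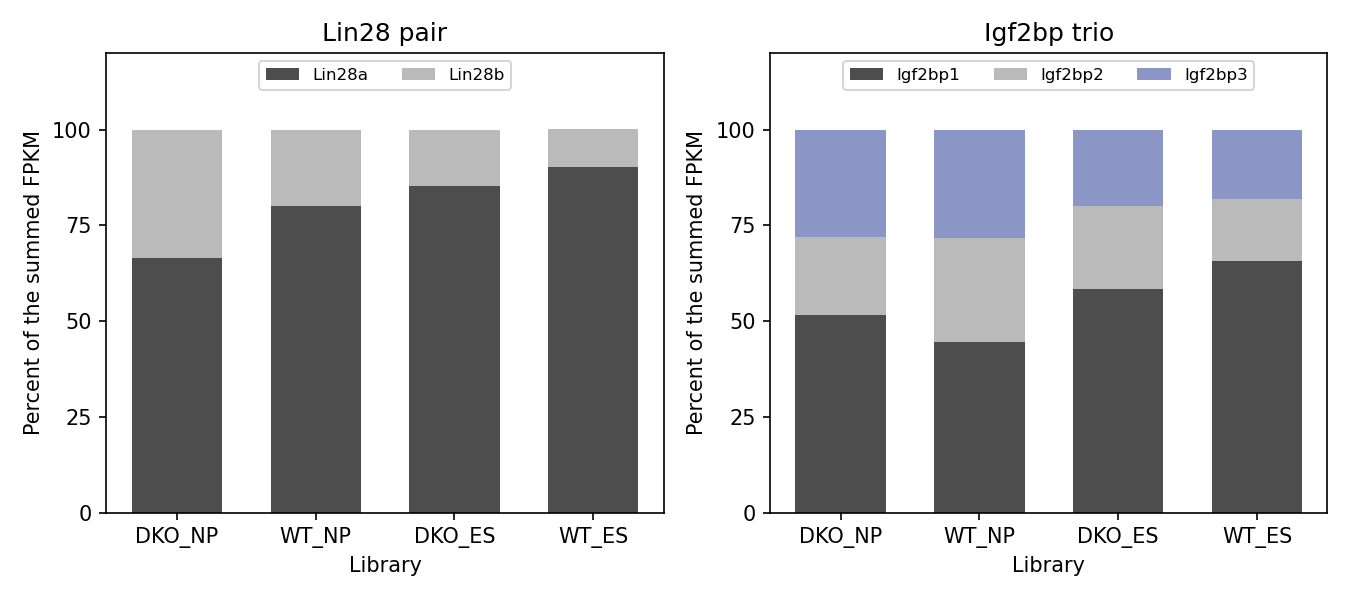
Percent of the summed FPKM held by each gene of the Lin28 pair and of the Igf2bp trio, with 1 bar per library. Lin28b holds 33.4% of its pair in DKO_NP, 20.0% in WT_NP, 14.8% in DKO_ES and 9.74% in WT_ES, and Igf2bp1 holds 44.5% to 65.8% of its trio.

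Trim71, the let-7 target that represses messages, stood at 31.9 FPKM in DKO_NP, 27.5 in WT_NP, 81.9 in DKO_ES and 121.5 in WT_ES. The NPC libraries were lower in both genotypes. The scaled fold was 1.86-fold lower in DKO_NP than in DKO_ES (1.80 to 1.92) and 2.25-fold lower in WT_NP than in WT_ES (2.19 to 2.31). The DKO log2 ratio of -0.88 was -1.33 and past 2-fold as deposited, and -0.27 under equal sums of FPKM.

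Hmga2, which bends DNA and marks growing embryonic tissue, went the opposite way to L1td1. It stood at 11.03 FPKM in DKO_NP, 31.2 in WT_NP, 4.03 in DKO_ES and 6.23 in WT_ES. Both NPC libraries were above both ES libraries, and WT_NP was above DKO_NP. It was 3.77-fold higher in DKO_NP than in DKO_ES (3.25 to 4.38) and 9.86-fold higher in WT_NP than in the WT_ES library (8.78 to 11.1), the 686th and 237th highest log2 ratios. The sign held under all 4 scalings.

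The Igf2bp genes, which stabilise messages, stayed within 2-fold between stages after scaling. Igf2bp1 stood at 95.8 FPKM in DKO_NP, 64.4 in WT_NP, 137 in DKO_ES and 164.5 in WT_ES. Igf2bp2 stood at 37.9, 39.6, 50.9 and 40.04 FPKM in the same order, and Igf2bp3 at 51.9, 40.9, 46.7 and 45.4 FPKM. The scaled log2 ratio of Igf2bp1 was -0.05 in DKO and -0.37 in WT cells, and that of WT cells was -1.34 as deposited. The sign for DKO cells flipped to 0.02 under equal upper quartiles and 0.56 under equal sums of FPKM. Igf2bp2 and Igf2bp3 had 0.03 and 0.60 in DKO cells after scaling, against -0.42 and 0.15 as deposited, and Igf2bp3 alone of the trio kept its sign there under all 4 scalings, passing 2-fold at 1.21 under equal sums of FPKM. In WT cells they had 0.94 and 0.81 after scaling, but -0.02 and -0.15 as deposited, and Igf2bp2 reached 1.03 under equal upper quartiles.

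Within the trio the balance again needs no scaling. Igf2bp1 held 51.6% of the summed FPKM in DKO_NP, 44.5% in WT_NP, 58.4% in DKO_ES and 65.8% in WT_ES. Its ratio to Igf2bp3 was 1.85 in DKO_NP (1.79 to 1.90), 1.58 in WT_NP (1.53 to 1.62), 2.93 in DKO_ES (2.82 to 3.05) and 3.62 in WT_ES (3.48 to 3.78). Igf2bp1 was the highest of the 3 in every library, and its lead over Igf2bp3 was smaller in both NPC libraries than in both ES libraries. Its ratio to Igf2bp2 was 2.53 in DKO_NP (2.44 to 2.62) and 1.63 in WT_NP (1.58 to 1.68), against 2.69 in DKO_ES (2.59 to 2.80) and 4.11 in WT_ES (3.93 to 4.30).

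**Figure D3:**
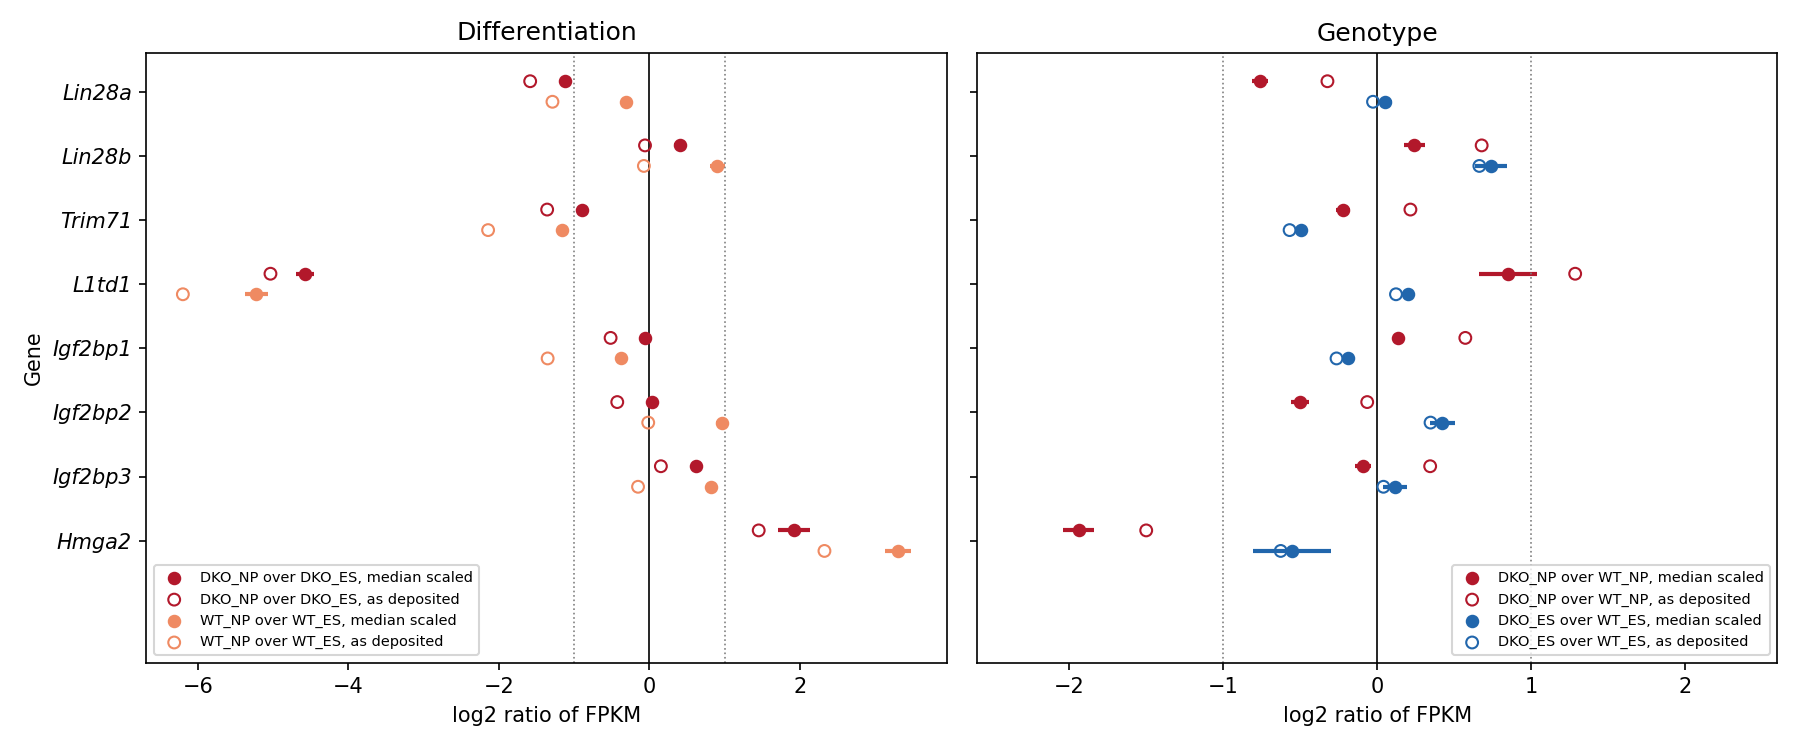
Log2 ratio of FPKM (x axis, no pseudocount) for each member, between stages on the left and between genotypes on the right; filled points are median scaled with 95% counting intervals, open points are as deposited, and dotted lines mark 2-fold. L1td1 lies far left and Hmga2 right between stages in both genotypes, while between genotypes Hmga2 in NPCs is the one filled point past 2-fold.

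Comparisons of knockout with wild-type cells ask what the loss of both enzymes changes at each stage. Among ES cells 0 of 8 members passed 2-fold for DKO_ES against WT_ES, with 3.71% of 13596 genes as background, 2.56% higher and 1.15% lower. The members' median log2 ratio was 0.08, beside 0.01 over all genes. Lin28b had the greatest difference and was 1.67-fold higher in DKO_ES (1.56 to 1.79), with a log2 ratio of 0.70 after scaling and 0.39 to 0.67 under the other scalings. This was the 696th highest ratio of the genes tested. Trim71 was 1.41-fold lower in DKO_ES (1.37 to 1.44) and Hmga2 1.47-fold lower (1.23 to 1.75), and Igf2bp2 was 1.34-fold higher (1.27 to 1.42), each with the same sign under all 4 scalings. Of the fibroblast markers 4 of the 6 at 1 FPKM were past 2-fold lower in DKO_ES, with a median log2 ratio of -1.59 and the summed levels given above, and their part in these values was not tested. Lin28a, at 160.6 FPKM in DKO_ES and 163.6 in WT_ES, had a log2 ratio of 0.05 that changed sign as deposited. L1td1 and Igf2bp3 had 0.20 and 0.11, and both changed sign under equal sums of FPKM.

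Among NPCs 1 of 8 members passed 2-fold for DKO_NP against WT_NP, with 12.8% of 13601 genes as background, 7.99% lower and 4.76% higher. Of the genes past 2-fold 37.3% were higher in DKO_NP after scaling but 72.2% as deposited, so the balance of directions over all genes depends on the scale. The members past 2-fold were 2 as deposited and 4 under equal sums of FPKM. Of all genes 1382 were past 2-fold higher in DKO_NP and 531 lower as deposited, and the share under equal sums was not computed. The gene past 2-fold after scaling was Hmga2, at 11.03 FPKM in DKO_NP and 31.2 in WT_NP. It was 3.83-fold lower in DKO_NP (3.57 to 4.11), the 268th lowest of the log2 ratios, at -1.85 after scaling and -1.42 as deposited, but at -0.77 and so short of 2-fold under equal sums of FPKM. The sums of mesoderm, endoderm and red blood cell markers given above were also lower in DKO_NP. Of the markers at 1 FPKM, 4 of 5 for mesoderm, 5 of 8 for endoderm and 3 of 5 for red blood cells were past 2-fold lower after scaling. So were 3 of the 5 fibroblast markers at 1 FPKM. None of these markers was past 2-fold higher, but some were higher in DKO_NP as deposited. The part of these markers in the Hmga2 value was not tested. L1td1 was 1.80-fold higher in DKO_NP (1.58 to 2.06), at 8.12 FPKM in DKO_NP and 3.33 in WT_NP, and its log2 ratio of 0.74 was 1.07 as deposited and 1.71 under equal sums of FPKM, past 2-fold in both. The 6 pluripotency markers likewise summed to more in DKO_NP, as given above, and their part in the L1td1 value was not tested. Lin28a was 1.69-fold lower in DKO_NP after scaling (1.63 to 1.76), but its log2 ratio of -0.75 turned to 0.37 under equal sums of FPKM. Lin28b had 0.23 and Igf2bp1 0.13, with the sign kept under all 4 scalings and values of 1.33 and 1.26, past 2-fold, under equal sums of FPKM. Trim71, Igf2bp2 and Igf2bp3 had -0.22, -0.49 and -0.09, and each changed sign under at least 1 other scaling, with Igf2bp3 at 1.03 and so past 2-fold under equal sums of FPKM.

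The difference between the differentiation ratios, DKO minus WT, reads the same 4 libraries once more. Hmga2 alone of the 8 members reached 1 in size, with 1.64 in DKO and 3.05 in WT cells and a difference of -1.42, against 11.0% of 13423 genes that reached 1 in either direction. As deposited its difference was -0.90, and under equal sums of FPKM it was -0.06. Igf2bp2 followed with -0.90 and Lin28a with -0.80, which turned to 0.53 and 0.65 under equal sums of FPKM. L1td1 had 0.54. Under equal sums L1td1, Igf2bp1, Trim71 and Igf2bp3 reached 1.83, 1.77, 1.70 and 1.23, so that 4 members other than Hmga2 passed 1 there. The difference rose for every member under that scaling. The share of all genes that reached 1 was not computed there, so this count has no background. After median scaling the median of all genes was 0.02, with quartiles of -0.34 and 0.32. No test of these differences was possible with 1 library per group.

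The let-7 genes themselves were barely covered. All values of the 12 genes were whole multiples of 1 read within 2.2e-05 read, so the reads can be counted. The 12 genes held 8 reads in DKO_NP, 27 in WT_NP, 4 in DKO_ES and 5 in WT_ES, which is 0.336, 0.783, 0.280 and 0.381 reads per M reads of the approximate denominators. Mirlet7e had 1 read in DKO_NP, 8 in WT_NP, 0 in DKO_ES and 1 in WT_ES, and Mirlet7c-1 had 1, 5, 0 and 0 reads. Mirlet7b, Mirlet7c-2 and Mirlet7f-2 were listed at 0 in all 4 libraries. A read over a hairpin gene shows its primary transcript or precursor and not mature let-7, and near-identical copies cannot be told apart, so these values give no level of the microRNA.

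A list of 19 genes that make, use and destroy microRNA precursors held Drosha and Dgcr8, which cut the primary transcript, the exporter Xpo5, Dicer1, which cuts the precursor, Zcchc11 and Zcchc6, which add uridine at the call of Lin28, and Dis3l2, which degrades the tailed precursor. On the log2 scale with 1 added, none of the members that reached 1 FPKM was past 2-fold after scaling, with 19 tested for DKO_NP against DKO_ES and against WT_NP and 18 for the other comparisons. Eif2c4, an Argonaute gene, was the one left out there, and it stood at 1.39 FPKM in DKO_NP, 0.574 in WT_NP, 0.796 in DKO_ES and 0.302 in WT_ES, where the added 1 shrinks its ratios. Over all genes 23% were past 2-fold between stages in DKO and 27.5% in WT cells, and 12.8% between genotypes in NPCs and 3.71% in ES cells. For WT_NP against WT_ES the 18 members at 1 FPKM ranged from -0.67 (Tarbp2, a partner of Dicer1) to 0.92 (Zcchc11), which as deposited were -1.61 and -0.03. As deposited Drosha (-1.41), Xpo5 (-1.40), Eif2c1 (-1.21), Tnrc6c (-1.10), Khsrp (-1.09) and Dicer1 (-1.06) were also past 2-fold lower there, and none was past 2-fold higher. Of all genes 901 were past 2-fold higher and 5876 lower as deposited. Zcchc11 stood at 24.4 FPKM in DKO_NP, 28.4 in WT_NP, 23.9 in DKO_ES and 28.9 in WT_ES. Dis3l2 stood at 13.5, 10.1, 17.9 and 16.2 FPKM in the same order, so RNA of these enzymes was present at both stages.

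Of 23 further let-7 targets 22 reached 1 FPKM in a pair, and members of the list differed in both directions. For DKO_NP against DKO_ES 7 were higher and none lower, with a median log2 ratio of -0.09, and for WT_NP against WT_ES 9 were higher and 3 lower, with a median of 0.12. In ES cells 1 was higher and none lower in DKO_ES, beside 2.56% and 1.15% of all genes. In NPCs 1 was higher and 1 lower in DKO_NP, beside 4.76% and 7.99% of all genes. Ccnd1 and Ccnd2 encode D-type cyclins, which drive the cell cycle. Ccnd2 stood at 74.2 FPKM in DKO_NP, 27.8 in WT_NP, 13.8 in DKO_ES and 4.36 in WT_ES, and was the target past 2-fold in ES cells, with a log2 ratio of 1.48. Ccnd1 stood at 36.2, 5.97, 56.1 and 63.6 FPKM in the same order, so that WT_NP was low and the other libraries were not, and DKO_NP over WT_NP had a log2 ratio of 2.05. The insulin receptor gene Insr went the other way in NPCs, at 6.81 FPKM in DKO_NP and 15.6 in WT_NP, with -1.52. Irs2, Tgfbr1 and Plagl2 were higher in NPCs than in ES cells after scaling in both genotypes, with log2 ratios of 1.82 to 1.93 in DKO and 1.53 to 1.69 in WT cells, but in WT cells they were under 2-fold as deposited (0.68 to 0.76). Of the 23 targets 16 held the CTACCTC match in the annotated 3′ UTR, and neither Ccnd1 nor Ccnd2 did.

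Messages bound by Igf2bp proteins were read from 6 genes. Igf2, the fetal growth factor that gave the family its name, stood at 94.0 FPKM in DKO_NP, 191.8 in WT_NP, 2.99 in DKO_ES and 9.89 in WT_ES, and H19, the noncoding RNA beside it, at 926.5, 233.3, 36.0 and 17.9 FPKM. Igf2 was lower and H19 higher in the knockout at both stages. Both were higher in NPCs of either genotype, with log2 ratios of 4.58 to 5.10, while the Igf2bp genes stayed within 2-fold after scaling. Actb, Myc and Btrc were within 2-fold in all 4 comparisons after scaling. Btrc in DKO cells and Actb in WT cells were however past 2-fold lower between stages as deposited. Cd44 was low, at 1.16, 2.505, 0.143 and 1.20 FPKM in the same order. After scaling its log2 ratio between stages was 1.03 in DKO and 1.31 in WT cells, and -1.06 for DKO_NP against WT_NP. As deposited these were 0.92, 0.67 and -0.70, short of 2-fold. In DKO_ES it was 7.96-fold lower than in WT_ES without the added 1 (4.34 to 15.99), and -0.78 on the log2 scale with it. Of 6 other oncofetal genes 5 were higher and Sall4, a pluripotency factor, was lower in WT_NP than in WT_ES, with a median of 2.39 beside 0.01 over all genes. In DKO_NP against DKO_ES the same 5 were higher, and Sall4 had -0.91. Over all genes 16.2% were higher and 11.3% lower in WT cells, and 11.8% and 11.2% in DKO cells. As deposited Peg10 and Tpbg were short of 2-fold in WT cells (0.96 and 0.26), as was Tpbg in DKO cells (0.65). On the log2 scale with 1 added, none of the 6 was past 2-fold between genotypes at either stage. Over all genes the share was 3.71% in ES cells and 12.8% in NPCs. Afp was below 1 FPKM in both ES libraries and was not tested there. Dlk1, at 0.373 FPKM in DKO_ES and 1.30 in WT_ES, was 3.3-fold lower in DKO_ES without the added 1 (2.09 to 5.40). Of the 6 genes 4, Dlk1, Afp, Gpc3 and Peg10, had log2 ratios between 1.46 and 4.43 between stages after scaling. Hmga2 was the one member higher past 2-fold between stages, as these genes were.

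**Figure D4:**
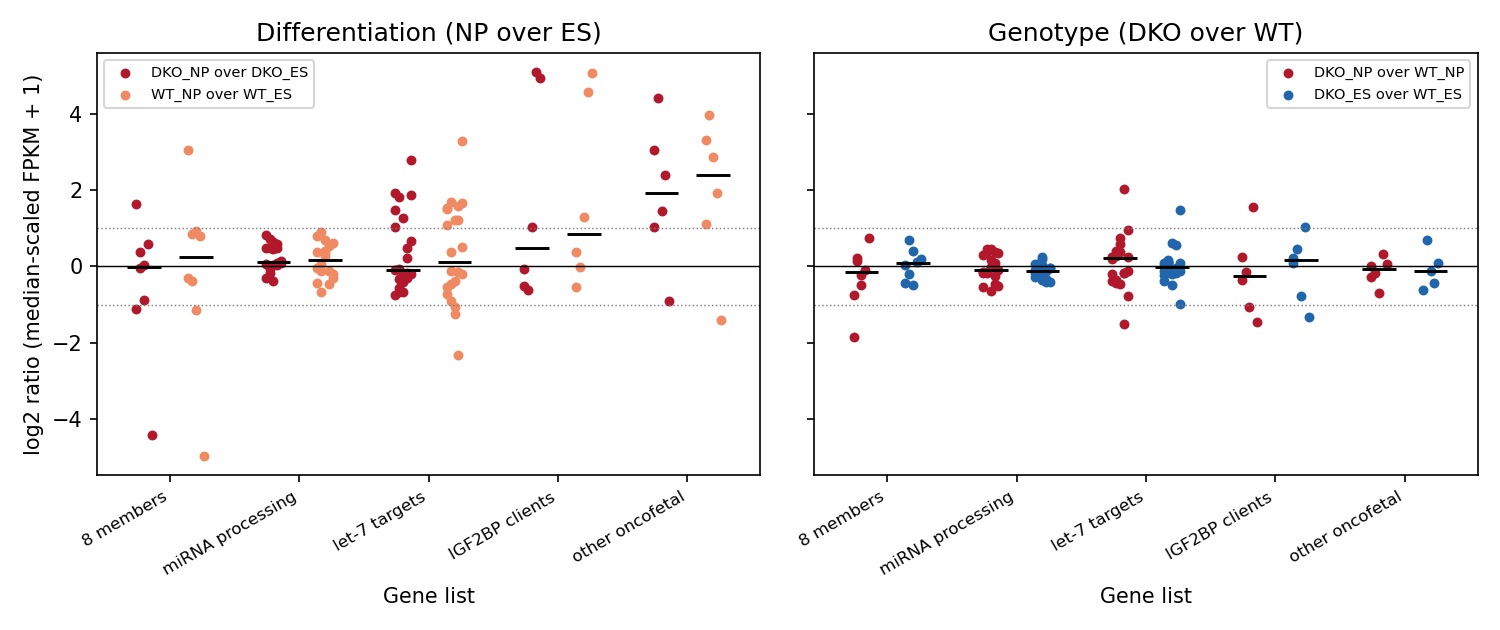
Log2 ratio of scaled FPKM plus 1 for each gene at or above 1 FPKM (1 point per gene, bars are list medians), between stages on the left and between genotypes on the right; dotted lines mark 2-fold. The genes of microRNA processing stay inside 2-fold in all 4 comparisons on this scale, while 5 of 6 other oncofetal genes lie above it between stages.

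The genes whose profile over the 4 libraries was closest to each member were found by distance between centred log2 profiles, among genes at 5 FPKM or more in a library. L1td1 had few near profiles, with 7 genes within a distance of 0.5, led by Triml1 (0.20) and Spry4, an inhibitor of growth factor signalling (0.23). Hmga2 had 25, led by the desmosome gene Dsp (0.13) and Flt1, a receptor of blood vessel cells (0.24). The other members had 450 to 3573 such genes, so their nearest genes say little: Cdk18 and Egln3 for Lin28a, Id1 and Nmb for Lin28b, Poli and Gli2 for Trim71, Idh3g and Kif18b for Igf2bp1, Smarcd3 and Cnot6l for Igf2bp2, and Fam165b and Ets2 for Igf2bp3. Lin28b lay closer to Igf2bp3 (0.48) and Igf2bp2 (0.57) than to its own paralogue Lin28a (1.57), and Lin28a was closest to Trim71 (0.62) among the members.

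The promoters were read because the knockout removes enzymes that act on CpG, a C followed by a G, where most DNA methylation of mammals lies. RefSeq held the window from 250 bases before to 50 after the start for 7 members, Igf2bp1 not among them. The CpG count in these 300 bases was 47 in Igf2bp2, 25 in Igf2bp3, 19 in Trim71, 14 in L1td1, 12 in Hmga2, 10 in Lin28a and 8 in Lin28b, beside a median of 7 and an upper quartile of 21 over 27025 promoters. The members that differed most between stages, L1td1 and Hmga2, were thus neither the richest nor the poorest in CpG. No methylation was measured here. The 250 bases before the start of these 2 genes are shown with each CpG in capitals (GRCm38.p6).
L1td1 (chr4:98726504-98726753, plus strand): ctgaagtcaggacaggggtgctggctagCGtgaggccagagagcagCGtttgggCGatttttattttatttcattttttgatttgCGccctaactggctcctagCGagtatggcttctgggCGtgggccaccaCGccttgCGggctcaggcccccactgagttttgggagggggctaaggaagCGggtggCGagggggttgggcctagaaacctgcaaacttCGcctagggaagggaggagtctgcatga
Hmga2 (chr10:120476470-120476719, minus strand): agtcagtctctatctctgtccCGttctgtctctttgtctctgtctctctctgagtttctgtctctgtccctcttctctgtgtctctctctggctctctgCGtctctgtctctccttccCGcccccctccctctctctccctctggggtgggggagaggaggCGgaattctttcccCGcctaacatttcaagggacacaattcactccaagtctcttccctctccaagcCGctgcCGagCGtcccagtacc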

How the data were processed

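RNA of 4 libraries, 1 per group, was depleted of rRNA and sequenced as single-end reads of 50 cycles, per the labels' protocols. Bowtie and TopHat with build mm9 are named in the submitters' processing notes; their versions, the program and annotation behind the values, strand and the handling of multi-mapping reads are not stated there. The authors deposited FPKM for 23235 symbols (18 blank rows were left out; 0 value columns were unmapped). A value of exactly 0 may be a failed estimate: Lars2 is at 0 in WT_ES and 10341 FPKM in DKO_ES.

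Computed here (Python 3.11.15, pandas 2.3.3, scipy 1.17.1): median-of-ratios factors from genes that reached 1 FPKM in each library (0.908, 0.671, 1.25 and 1.32 for DKO_NP, WT_NP, DKO_ES and WT_ES); log2 ratios with a pseudocount of 1 FPKM, which understate differences of low genes, for genes that reached 1 FPKM in one of the pair; and exact (Clopper-Pearson) 95% intervals from approximate reads. Denominators came from the steps of low values (56.9% of 3511 low genes were whole within 0.04 read) and GENCODE M21 exon lengths, and are rough. PCR copies are not independent molecules. Calls were checked on simulated counts that held counting noise only. Such counts cannot test the choice of scaling or the variation between replicates. No test was run on groups of 1 library.

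The members and gene lists were chosen with earlier results of these data known. Named genes were the members, Dnmt3a, Dnmt3b, the 2 nearest profiles per member, and per list up to 6 genes with the largest ratio for WT_NP against WT_ES or DKO_NP against WT_NP plus any past 2-fold in ES cells. The Ago genes and Map2 were found under 5 older symbols. Other genes of microRNA processing, Lars2 among the checks, and the promoters shown were chosen after values were seen.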

Additional observations from a re-analysis of the deposited data

Results flagged for a closer look

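Between genotypes, 4 members had log2 ratios of opposite sign at the 2 stages (DKO_NP over WT_NP, then DKO_ES over WT_ES). They were -0.75 and 0.05 for Lin28a, which differ by -0.80, and 0.13 and -0.19 for Igf2bp1, which differ by 0.32. They were -0.49 and 0.41 for Igf2bp2, which differ by -0.90, and -0.09 and 0.11 for Igf2bp3, which differ by -0.20. The differences were not tested, since each value compares 1 library with 1, and none of the 8 values reached 2-fold after median scaling. For Lin28a and Igf2bp3 both signs changed under at least 1 other scaling, for Igf2bp2 the sign in NPCs did, and for Igf2bp1 neither did.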

How the results depend on the processing

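Scaling moved the counts, while the pseudocount and equal upper quartiles left each within 1.5 times. Both other filters only choose which genes are tested. Every member passed them, so they could not move these counts. Members past 2-fold for WT_NP against WT_ES were 3 after median scaling, but 5 as deposited and 5 under equal sums of FPKM. For DKO_NP against WT_NP the count was 1, but 2 as deposited and 4 under equal sums, and members with a difference of differentiation ratios of 1 or more were 1, but 0 as deposited and 4 under equal sums. Between libraries the counts over all genes moved as deposited too, as given above. They were not computed under equal sums, nor for the differences under either scaling. The 10 genes with the highest FPKM held 54.6% to 64.9% of the sums, and the cause of these moves was not tested. Of 240 single values under the 6 alternatives 91 moved by more than counting error. The 40 values under each of the 2 other filters could not move. As deposited 36 of 40 moved and under equal sums 40 of 40, against 11 under equal upper quartiles and 4 with the other pseudocount. No value that was past 2-fold after median scaling changed sign, but Igf2bp3 turned sign and passed 2-fold under equal sums, at 1.03 for DKO_NP against WT_NP and 1.23 for the difference of differentiation ratios. Within-family ratios need no scaling. No paired analysis was possible because each group holds 1 library. No replicate could be left out.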
